A study of Mus musculus with 6 samples.

Results

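The 33 genes described here are type I interferon-stimulated genes, taken by symbol from the deposited expression table, in which each of the 33 had exactly 1 of the 55450 rows. The libraries were made from regulatory T (Treg) cells, a Foxp3-dependent T cell lineage that holds immune responses in check, sorted from MC38 tumours, a transplantable colon carcinoma of C57BL/6 mice. All libraries share the C57BL/6 strain, the MC38 tumour and the Treg sort. The groups differ in Tim-3, with 3 libraries from mice whose Treg cells were Tim-3 deficient and 3 from mice whose Treg cells were Tim-3 sufficient. Tim-3, encoded by Havcr2, is an inhibitory receptor of activated lymphocytes. The labels name no Cre driver, no floxed allele and no age, and leave unsaid whether each library is a different mouse. A p-value here therefore reflects only how far these libraries spread, part of which may be technical. In sorted bulk samples, fewer cells expressing a gene and less of its RNA per cell cannot be told apart.

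Type I interferons (the interferon alpha family and interferon beta) bind a receptor of the chains Ifnar1 and Ifnar2, whose kinases Jak1 and Tyk2 act on Stat2 among other factors. With Irf9, Stat2 belongs to a complex that binds the interferon-stimulated response element (ISRE) in promoters and induces antiviral genes. Interferon gamma acts at another element, the gamma-activated site (GAS), and many genes respond to both kinds of interferon, so a level of these genes does not tell which interferon was received.

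Levels are given as log2(TPM + 1). TPM corrects abundance for gene length and scales each library to the same total, so levels can be set beside each other between genes. Column names gave the group of a library but no replicate number. Libraries are therefore called deficient C1, deficient D and deficient dated, and sufficient A1, sufficient B1 and sufficient dated, where "dated" is the 1 library of each group whose column name carries a calendar date; what that date records is not stated. Havcr2 stood at 3.54, 4.27 and 2.55 in deficient C1, D and dated, and at 5.70, 5.64 and 4.49 in sufficient A1, B1 and dated, without overlap. The 6 Treg markers were all at 1 TPM or more in every library and had a median difference (deficient minus sufficient) of -0.30. Foxp3 lay between 5.43 and 5.56 in deficient and between 4.82 and 5.52 in sufficient libraries (difference 0.31) and Ikzf2 had 0.066, while Izumo1r had -0.69, without overlap, Il2ra -0.67, Tnfrsf18 -0.35 and Ctla4 -0.25; none was called in limma. The 13 macrophage and monocyte markers summed to 1370, 19.3 and 21.6 TPM in deficient C1, D and dated, against 132, 947 and 27.95 TPM in sufficient A1, B1 and dated, so 1 library of each group, deficient C1 and sufficient B1, carried most of these transcripts. The plasmacytoid dendritic cell marker Siglech, from cells known for making type I interferon, was listed at 0 in 5 libraries and at 0.25 on the log2 scale in sufficient A1; the 6 markers of these cells summed to 25.2, 1.88 and 1.15 TPM in deficient C1, D and dated, and to 2.11, 10.5 and 2.15 TPM in sufficient A1, B1 and dated. The 6 T cell markers summed to between 5867 and 9328 TPM in deficient and between 9917 and 10248 TPM in sufficient libraries, without overlap, and the 6 B cell markers, with Ms4a1 at 0 in all libraries, to between 186 and 243 TPM in deficient and between 51.2 and 173 TPM in sufficient libraries, also without overlap. The part of these cells in the differences below was not tested. The deficient dated library held 0.01 TPM of 4 Y-linked transcripts, against 140 to 186 TPM in the other 5 libraries.

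The promoters show what the genes have in common and where they differ. RefSeq promoter sequences on GRCm38.p6, running from 250 bases before the gene start to 50 bases after it, were on hand for 25 of the 33 genes. The ISRE letters, GAAA, any 2 bases and GAAA again, searched on both strands, occurred in 13 of these 25 genes (52%), against 3.99% of the 27025 genes with a promoter in the table. The GAS letters TTCNNNGAA, which read the same on both strands, occurred in 8 of the 25 (32%), against 9.55% of the 27025; in 1 window, that of Bst2, the matches shared bases. The 6 windows shown are those of Cxcl10 and Isg20, the members with the largest differences between groups in each direction, of Ifit1, Ifit3 and Isg15, which carry several ISRE matches and whose groups overlapped, and of Irf1, an abundant member with a GAS match. Matches are in capitals, the ISRE letters or their reverse complement in the first 4 and the GAS letters in the last 2.
Cxcl10 (chr5:92348840-92349139, minus strand): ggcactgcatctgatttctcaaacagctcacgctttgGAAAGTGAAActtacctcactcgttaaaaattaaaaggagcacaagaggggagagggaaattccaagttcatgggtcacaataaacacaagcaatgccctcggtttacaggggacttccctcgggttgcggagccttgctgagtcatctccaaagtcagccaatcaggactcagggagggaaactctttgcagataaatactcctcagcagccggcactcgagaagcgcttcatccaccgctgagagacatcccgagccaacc
Ifit1 (chr19:34640639-34640938, plus strand): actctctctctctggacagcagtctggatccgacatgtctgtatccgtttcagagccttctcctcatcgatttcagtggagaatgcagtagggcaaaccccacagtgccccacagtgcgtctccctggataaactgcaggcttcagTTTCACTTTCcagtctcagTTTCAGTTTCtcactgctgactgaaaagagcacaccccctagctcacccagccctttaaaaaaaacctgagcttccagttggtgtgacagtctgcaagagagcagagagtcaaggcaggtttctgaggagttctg
Ifit3 (chr19:34583279-34583578, plus strand): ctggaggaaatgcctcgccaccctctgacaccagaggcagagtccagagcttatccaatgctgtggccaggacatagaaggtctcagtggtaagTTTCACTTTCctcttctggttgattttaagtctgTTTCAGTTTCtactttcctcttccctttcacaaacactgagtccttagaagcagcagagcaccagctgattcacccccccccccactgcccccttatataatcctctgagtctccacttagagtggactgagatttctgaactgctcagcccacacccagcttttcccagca
Isg15 (chr4:156200769-156201068, minus strand): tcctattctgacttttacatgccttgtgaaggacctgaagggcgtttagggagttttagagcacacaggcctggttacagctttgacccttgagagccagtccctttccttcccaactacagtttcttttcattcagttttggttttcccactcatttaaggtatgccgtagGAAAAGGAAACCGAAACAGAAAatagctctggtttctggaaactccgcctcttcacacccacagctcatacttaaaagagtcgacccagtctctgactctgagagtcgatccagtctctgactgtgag
Isg20 (chr7:78913174-78913473, plus strand): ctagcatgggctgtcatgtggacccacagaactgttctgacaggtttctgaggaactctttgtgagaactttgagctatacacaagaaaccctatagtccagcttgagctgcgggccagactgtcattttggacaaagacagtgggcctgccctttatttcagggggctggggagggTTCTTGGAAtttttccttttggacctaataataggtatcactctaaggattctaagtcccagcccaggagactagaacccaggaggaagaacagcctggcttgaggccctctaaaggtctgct
Irf1 (chr11:53769764-53770063, plus strand): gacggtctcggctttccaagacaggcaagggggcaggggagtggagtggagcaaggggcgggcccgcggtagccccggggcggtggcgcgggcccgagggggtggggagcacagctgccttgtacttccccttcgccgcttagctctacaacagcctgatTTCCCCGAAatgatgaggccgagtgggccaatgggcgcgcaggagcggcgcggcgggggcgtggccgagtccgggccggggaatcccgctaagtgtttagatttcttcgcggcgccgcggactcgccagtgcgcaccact
Ifit1 and Ifit3 hold the same pair of ISRE matches in the same order, starting 104 and 85 bases before the start in Ifit1 and 156 and 122 bases before it in Ifit3. Isg15 holds 3 matches that run into each other from 78 bases before its start. The match in Cxcl10 starts 213 bases before the gene, and Isg20 has 3 windows in the table, of which the one shown holds the GAS match. Of the 13 genes with an ISRE match, 8 had positive and 5 negative differences (deficient minus sufficient), and of the 11 tested genes without a match in the window, 9 had positive and 2 negative differences. The medians were 0.16 with and 0.24 without a match, and these are descriptions with no test.

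Tumour Treg cells expressed most of these genes in both groups, and their summed level overlapped between deficient and sufficient cells. Between 31 and 33 members reached 1 TPM in a library, and 32 passed the filter of 1 TPM or more in at least 3 libraries; Ifi44, at 0.98, 0.85 and 0.04 in deficient and 1.12, 0.85 and 0.16 in sufficient libraries, did not. The members summed to 2759, 3327 and 3798 TPM in deficient C1, D and dated, and to 3038, 2970 and 3089 TPM in sufficient A1, B1 and dated. Deficient C1 was the lowest and deficient dated the highest of the 6. Samhd1, Irf1, Isg20 and Zbp1 were among the 5 members of highest mean level in both groups, and Oas2, Oasl1, Oas3 and Ifi44 were the lowest 4 in both.

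**Figure D1:**
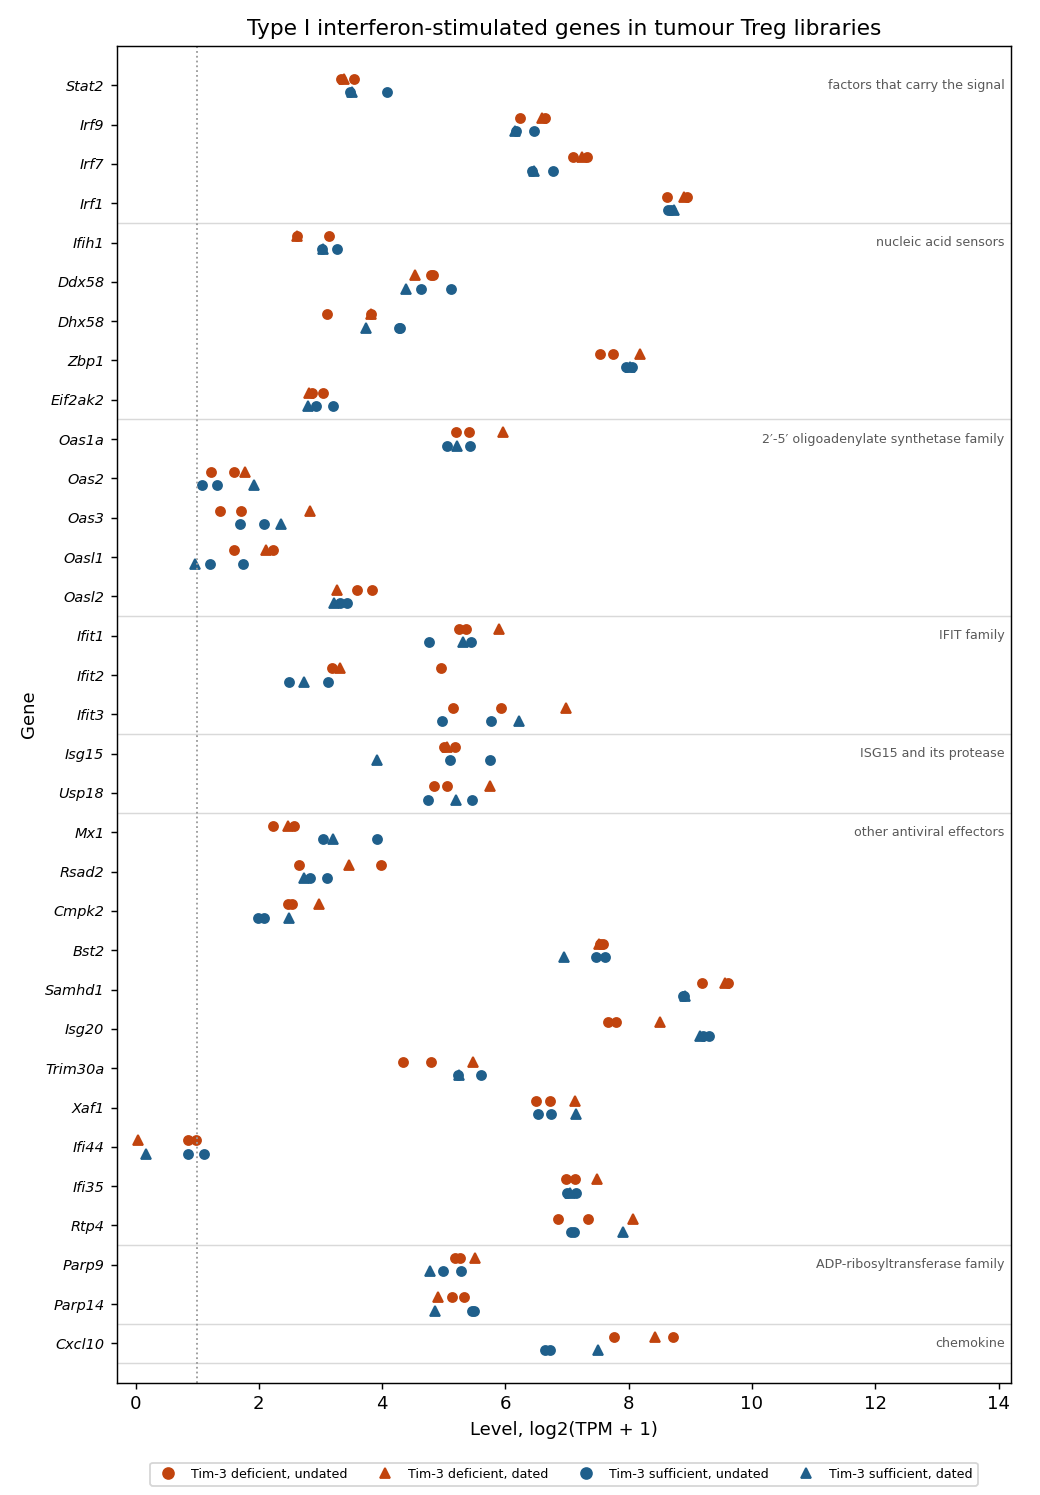
Level of each of the 33 genes in log2(TPM + 1) on the horizontal axis, 1 point per library, grouped by role from top to bottom; deficient libraries are orange and drawn above the blue sufficient libraries, triangles are the dated libraries, and the dotted line marks a value of 1. Colours are interleaved for most genes, while Isg20 lies at 7.66 to 8.50 in deficient and 9.15 to 9.30 in sufficient libraries.

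No member passed the test over all genes. In limma over 12155 genes (two-sided, called where the p adjusted by Benjamini-Hochberg was under 0.05), 0 of the 32 tested members were called, against 25 genes in all, which is 0.206% of those tested (0.132% higher and 0.074% lower). These were 16 higher and 9 lower, against 16 and 22 with quantile normalization and 11 and 19 with each library centred on its median. At an unadjusted p under 0.05, 3 members were higher (Cxcl10, Irf7 and Samhd1) and 2 lower (Isg20 and Mx1), beside 6.98% of all genes higher and 4.69% lower. Of the 32, 21 had positive differences (65.6%), against 60.1% of all genes, and 11 had negative ones, against 39.9% of all genes. The median difference was 0.14, against 0.09 over all genes tested. Centring shifted the median of all genes by -0.135, and the members then had 16 positive and 16 negative differences with a median of 0.0011. Groups did not overlap for 4 members higher in deficient cells (Cxcl10, Irf7, Samhd1 and Ifit2) and for 2 lower (Isg20 and Mx1), together 18.8% of the 32, against 17.6% of all genes (10.9% higher and 6.73% lower). Both shares are near those of all genes.

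For 19 of the 32 members (59.4%), the 95% interval from limma lay within 1 either side of 0. The share over all genes was 53.2%. On the log2 scale used, this is under a 2-fold change of TPM + 1 in either direction. For low members such as Oas2 and Ifih1 it does not bound a 2-fold change of TPM itself. Among the 19 were also Irf1, Irf9, Bst2, Zbp1, Ddx58, Ifit1, Oas1a and Parp9. The intervals of Ifit2, Ifit3, Isg15, Rsad2, Cmpk2, Oasl1, Oas3, Dhx58 and Trim30a included 0 and reached past 1 on a side, so a 2-fold change of these 9 was neither shown nor bounded.

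**Figure D2:**
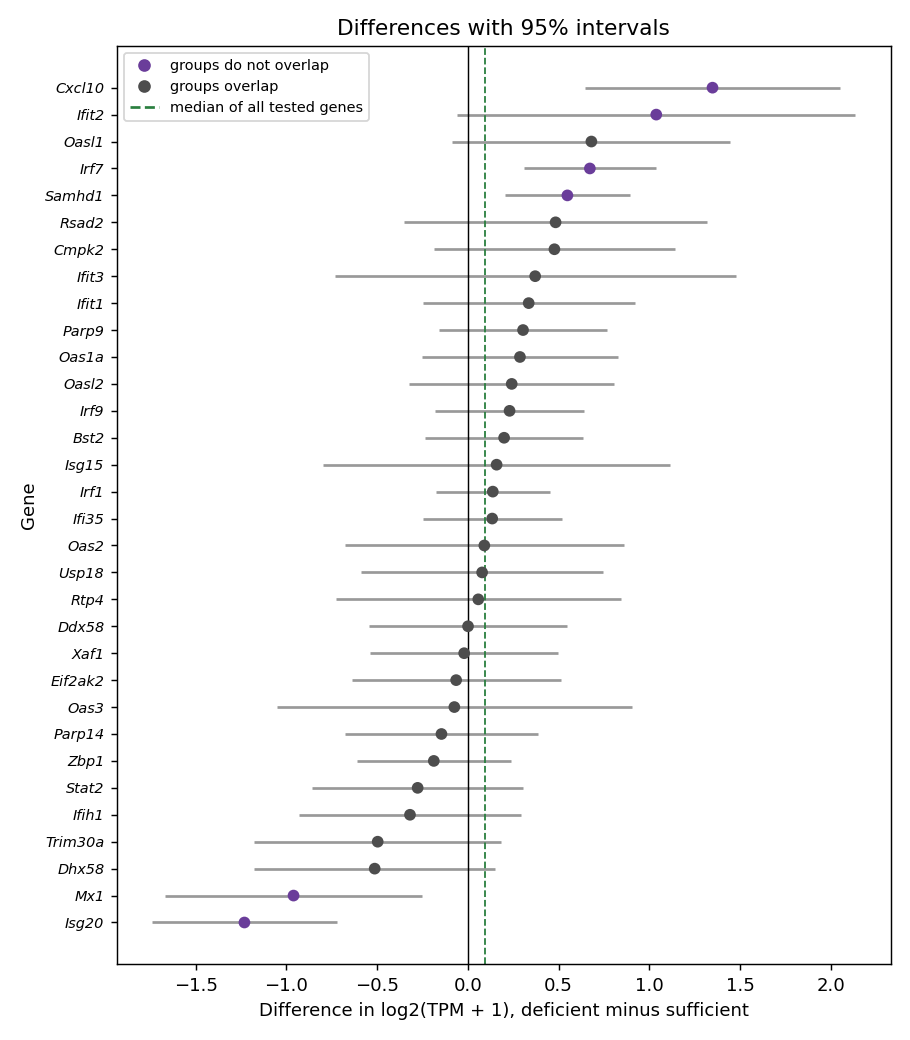
Difference in log2(TPM + 1), deficient minus sufficient, of the 32 tested members with the 95% interval from limma (n = 3 libraries per group), sorted by size; purple points are members whose groups do not overlap and the green line is the median of all tested genes at 0.09. Cxcl10 lies at the top at 1.35 and Isg20 at the bottom at -1.23, and most intervals include 0.

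Of the secreted products, Cxcl10 was the member with the largest positive difference. It encodes a chemokine that attracts T and NK cells bearing Cxcr3 and lies on chromosome 5 (92346638 to 92348889, minus strand, GRCm38). Its level was 7.76, 8.72 and 8.43 in deficient C1, D and dated, against 6.64, 6.73 and 7.50 in sufficient A1, B1 and dated. Each deficient library lay above each sufficient one, and deficient C1 and sufficient dated came closest. The means were 8.30 ± 0.50 in deficient and 6.96 ± 0.47 in sufficient libraries (SD, n = 3 each), a 2.55-fold difference of 1.35 ± 0.30 (SE). Over all genes its adjusted p in limma was 0.152. With the date mark as a block it passed (adjusted p = 0.046), and the undated libraries differed by 1.55 and the dated pair by 0.93. Without deficient C1 and sufficient B1, the libraries with most macrophage transcripts, it was 1.51 (adjusted p = 0.448). With 1 library left out it was not called (adjusted p from 0.103 to 0.463), nor without both dated libraries (0.0509). Reads of Art3, which overlaps Cxcl10 on the opposite strand, cannot be told apart where strand was not kept; Art3 reached at most 2.87.

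Isg20, which encodes an exonuclease that degrades single-stranded RNA, was the member with the largest negative difference. It lies on chromosome 7 (78913424 to 78920396, plus strand). It stood at 7.66, 7.79 and 8.50 in deficient C1, D and dated, against 9.20, 9.30 and 9.15 in sufficient A1, B1 and dated. The sufficient libraries lay close together and the deficient dated library lay between them and the other deficient libraries. Means were 7.99 ± 0.45 in deficient and 9.22 ± 0.077 in sufficient libraries (SD, n = 3 each), a difference of -1.23 ± 0.22 (SE), or 2.35-fold lower in deficient cells. The adjusted p in limma was 0.0929 with all libraries and 0.0259 with the date mark as a block. With the block, 1 member was called higher (Cxcl10) and 1 lower (Isg20), beside 1.12% and 0.856% of all genes (1.97% in both directions). Isg20 was also called without the deficient dated library (-1.49, adjusted p = 0.0108) and without both dated libraries (-1.52, adjusted p = 0.00642), but not with any of the other 5 libraries left out (adjusted p from 0.150 to 0.321) nor without deficient C1 and sufficient B1 (-1.03, adjusted p = 0.557). The dated pair alone differed by -0.65.

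**Figure D3:**
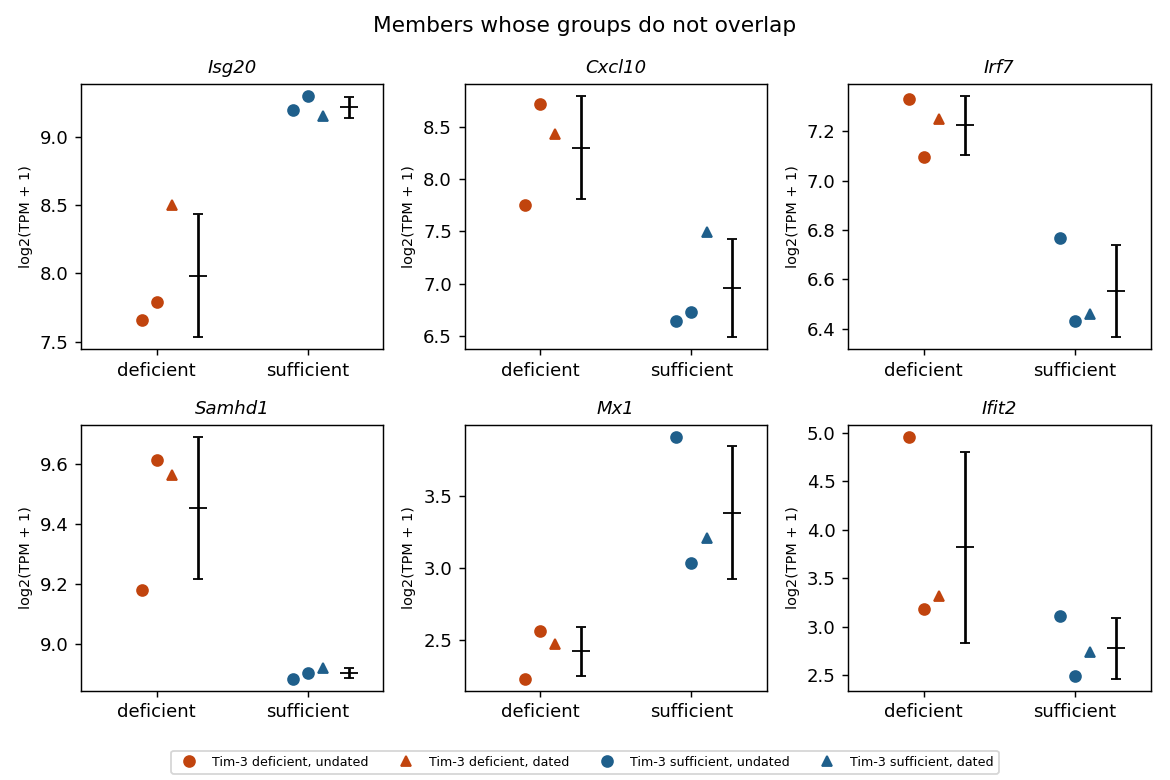
Level in log2(TPM + 1) of the 6 members whose groups do not overlap, 1 point per library with deficient left of sufficient, triangles for the dated libraries, with black bars for the mean and SD of each group (n = 3); vertical axes differ between panels and do not start at 0. Isg20 and Mx1 lie lower in deficient libraries, and Cxcl10, Irf7, Samhd1 and Ifit2 higher, with Ifit2 separated by 3.19 in deficient D against 3.11 in sufficient A1.

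Among the factors that carry the interferon signal, Irf7 separated the groups and the others did not. Irf7, the factor that drives the interferon alpha genes (chromosome 7, 141262706 to 141266481), had 7.33, 7.10 and 7.25 in deficient C1, D and dated, and 6.77, 6.43 and 6.46 in sufficient A1, B1 and dated. Each deficient library lay above each sufficient library. The difference was 0.67 ± 0.16 (SE), 1.59-fold, with an adjusted p in limma of 0.159 and of 0.0641 with the date mark as a block. It was 0.61 in the undated libraries and 0.79 for the dated pair. Phrf1, which overlaps Irf7 on the opposite strand, reached 4.999. Irf1, induced by both kinds of interferon, was abundant and even, at 8.62, 8.94 and 8.90 in deficient and 8.69, 8.64 and 8.73 in sufficient libraries (difference 0.14 ± 0.14, SE). Irf9 lay between 6.24 and 6.65 in deficient and between 6.15 and 6.47 in sufficient libraries, and Stat2 between 3.33 and 3.54 in deficient and between 3.49 and 4.08 in sufficient libraries, both with overlap.

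The sensors of foreign nucleic acid did not separate the groups. Zbp1, which senses Z-form nucleic acid and can start necroptosis, had 7.53, 7.75 and 8.19 in deficient and 7.95, 8.06 and 8.02 in sufficient libraries. Ddx58, the RNA sensor RIG-I, had 4.79, 4.82 and 4.53 in deficient and 5.11, 4.63 and 4.38 in sufficient libraries, a difference of 0.0011 that was negative under quantile normalization and centring. The deficient dated library was highest for Zbp1 and lowest of its group for Ddx58. Dhx58 (LGP2, a regulator of these sensors) at -0.51, Ifih1 (the RNA sensor MDA5) at -0.32 and Eif2ak2 (the kinase PKR, which stops translation) at -0.064 had differences below 0. The median over the 5 sensors was -0.19, and it was -0.25 with quantile normalization and -0.32 with centring, but no sensor passed at an unadjusted p under 0.05. Dhx58 had -0.81 in the undated libraries and 0.075 for the dated pair.

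The 5 genes of the oligoadenylate synthetase family all lie on chromosome 5. The family is named for enzymes that make the short adenylate chains that activate RNase L. None of the 5 passed at an unadjusted p under 0.05. Oas1a had 5.41, 5.20 and 5.96 in deficient and 5.06, 5.43 and 5.22 in sufficient libraries. Oasl2 had 3.60, 3.83 and 3.27 in deficient and 3.32, 3.43 and 3.23 in sufficient libraries. In Oas1a the deficient dated library stood above the rest, and in Oasl2 it was the lowest deficient library. Oasl1, which in mouse restrains Irf7 translation, had the largest difference of the family at 0.68 ± 0.33 (SE, adjusted p in limma 0.466), with 1.60 to 2.23 in deficient and 0.96 to 1.74 in sufficient libraries. Oas2 (0.09, negative with centring) and Oas3 (-0.074) lay between 1.08 and 2.83 in all libraries. The median of the 5 genes was 0.24, against 0.09 for all genes tested. Oas1a has a close paralog in Oas1g, which reached at most 1.21, and reads of such copies can be divided between them. Of the other Oas1 genes, Oas1b reached 3.28. Oas1c had 3.25, 3.26 and 3.25 in deficient and 2.78, 2.23 and 2.47 in sufficient libraries, without overlap (difference 0.76, adjusted p in limma 0.305).

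The IFIT genes, neighbours on chromosome 19 that encode antiviral proteins, had positive differences in 3 of 3 cases, beside 60.1% of all genes. None passed. Ifit2 was 4.96, 3.19 and 3.31 in deficient C1, D and dated, against 3.11, 2.49 and 2.74 in sufficient A1, B1 and dated. Its difference of 1.04 ± 0.48 (SE, adjusted p in limma 0.451) rested largely on deficient C1, without which it was 0.47. Deficient C1 is also the library with most macrophage transcripts, and whether these have a part in the Ifit2 value was not tested. Ifit3 had 5.93, 5.15 and 6.99 in deficient and 5.77, 4.97 and 6.22 in sufficient libraries. Ifit1 had 5.36, 5.25 and 5.89 in deficient and 5.44, 4.76 and 5.30 in sufficient libraries. For Ifit1 and Ifit3 the dated library stood highest among the deficient ones, and the groups overlapped. Their differences were 0.34 ± 0.25 and 0.37 ± 0.48 (SE), and that of Ifit3 was -0.11 without the deficient dated library. Ifit3b, a near copy of Ifit3, ranged from 2.79 to 4.97 in deficient and from 2.07 to 4.28 in sufficient libraries, and the close paralog Ifit1bl1 of Ifit1 from 4.35 to 5.19 in deficient and from 3.63 to 4.50 in sufficient libraries, so reads of these genes may be split among copies.

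Isg15, a ubiquitin-like modifier, and Usp18, the protease that removes it and dampens receptor signalling, gave no separation. Isg15 had 5.19, 5.003 and 5.06 in deficient and 5.75, 5.10 and 3.92 in sufficient libraries. Its deficient libraries were even, and the sufficient libraries spread on both sides of them. Usp18 had 5.05, 4.84 and 5.74 in deficient and 5.45, 4.74 and 5.21 in sufficient libraries. The differences of 0.16 ± 0.41 and 0.079 ± 0.29 (SE) changed sign for Isg15 under quantile normalization and for Usp18 under quantile normalization and under centring on the library median.

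Of the other antiviral effectors, Samhd1 stood higher and Mx1 lower in each deficient library, short of the threshold. Samhd1, which degrades deoxynucleotides, had 9.18, 9.61 and 9.56 in deficient and 8.89, 8.91 and 8.92 in sufficient libraries. The sufficient libraries lay close together, below each deficient library. The difference was 0.55 ± 0.15 (SE), 1.46-fold, with an adjusted p in limma of 0.218, with 0.50 in the undated libraries and 0.64 for the dated pair. Mx1, an antiviral GTPase whose C57BL/6 allele is known to encode no functional protein, had 2.24, 2.56 and 2.48 in deficient and 3.91, 3.04 and 3.21 in sufficient libraries. Its difference was -0.96 ± 0.31 (SE, adjusted p in limma 0.274), or 1.95-fold lower in TPM + 1, and -0.70 without sufficient A1. With 0.1 instead of 1 added to TPM, the difference was -1.09. Each deficient library lay below each sufficient one, and sufficient A1 was highest. The groups of Rsad2 (viperin, which makes a chain-terminating nucleotide), Cmpk2 (the nucleotide kinase gene beside it), Bst2 (tetherin, which holds virus particles at the membrane), Trim30a, Xaf1 (an antagonist of the apoptosis inhibitor Xiap), Ifi35 and Rtp4 overlapped, with differences from -0.50 (Trim30a) to 0.48 (Rsad2); that of Ifi35 (0.13) was negative with centring and that of Rtp4 (0.058) with centring and quantile normalization. In the neighbours Rsad2 and Cmpk2 the differences were alike, at 0.48 and 0.48. Rtp4 and Xaf1 followed the date mark in both groups: Rtp4 had 8.08 in deficient dated and 7.91 in sufficient dated, against 6.85 to 7.34 in the undated libraries, and Xaf1 had 7.14 in both dated libraries, against 6.49 to 6.74.

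The ADP-ribosyltransferase genes Parp9 and Parp14 lie near each other on chromosome 16. Parp9 had 5.18, 5.26 and 5.51 in deficient and 5.28, 4.99 and 4.77 in sufficient libraries, and Parp14 had 5.14, 5.33 and 4.90 in deficient and 5.49, 5.46 and 4.86 in sufficient libraries. Both overlapped, with differences of 0.30 ± 0.20 and -0.15 ± 0.23 (SE). Parp9 overlaps its partner gene Dtx3l on the opposite strand, which reached 4.37, and these cannot be separated where strand was not kept.

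The differences were also computed apart for undated and dated libraries. Among the 4 undated libraries the median difference over the 32 members was 0.012, with 17 positive values (53.1%, against 58.6% of all genes). In the dated pair, 1 deficient against 1 sufficient library, it was 0.44, with 26 positive values (81.2%, against 57.6% of all genes); the medians over all genes were 0.094 and 0.082. Isg15 had -0.33 and 1.14 in the undated libraries and the dated pair, Trim30a -0.85 and 0.21, and Oas3 -0.35 and 0.48. Over the 32 members, signs matched in 65.6%, against 61.2% of all genes. The difference between the dated pair and the undated libraries was itself tested for each gene with an interaction term in limma: 0 of 32 members passed (lowest adjusted p 0.518, for Isg20), and 2 of 12155 genes did. At an unadjusted p under 0.05 there were 3 of the 32 members (Isg20, Isg15 and Trim30a) and 742 of the 12155 genes. Each dated group held 1 library, so the spread in the interaction test came from the undated libraries alone. Members short of the threshold there are not shown to differ alike in dated and undated libraries. The deficient dated library held the highest value of 10 members and sufficient A1 of 9, and the lowest value was held by deficient C1 and by sufficient dated in 9 members each. The dated pair also differs in Y-linked transcripts, and whether that, or what the date records, has a part in these values was not tested.

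**Figure D4:**
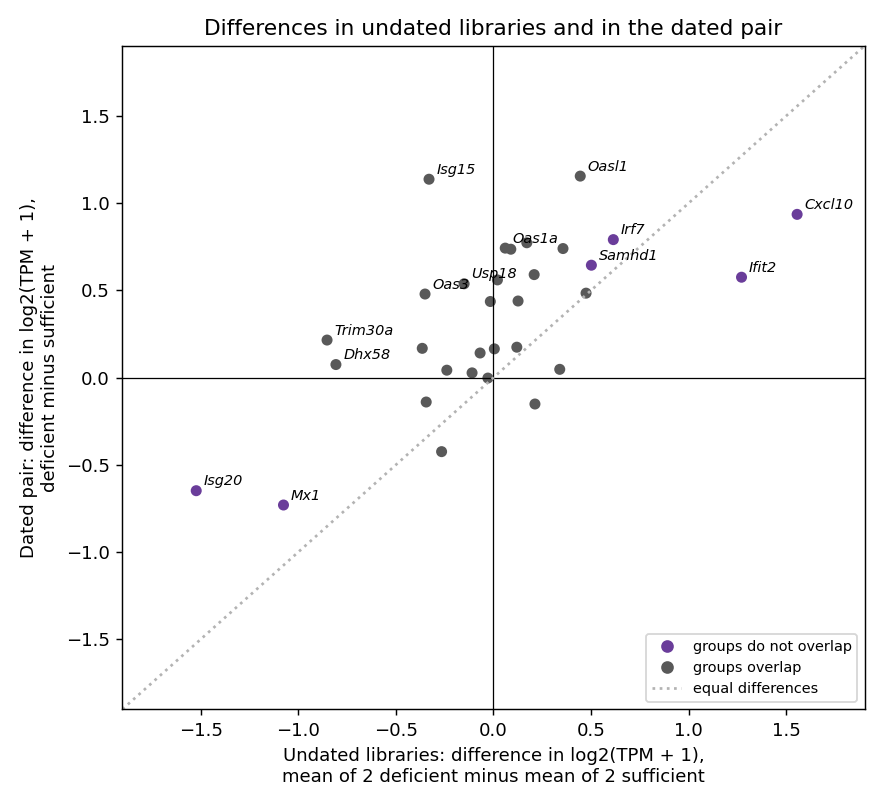
Difference in log2(TPM + 1), deficient minus sufficient, of the 32 tested members in the 4 undated libraries (horizontal) and in the dated pair (vertical), with the dotted line where both are equal; purple points are members whose groups do not overlap. Most points lie above the line, with Isg15 at -0.33 and 1.14. The purple members lie on the same side of 0 on both axes because of how they were chosen.

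Of the genes upstream of the members that are described here, none was called in the fit without a block. Of 18 type I interferon genes listed, 16 were at 0 in all 6 libraries; Ifna16 had 0.029 in sufficient dated alone, and Ifnz reached at most 0.33, so transcripts of the ligands were at or near 0 in these sorted cells. The receptor chain Ifnar1 ranged from 5.59 to 6.44 in deficient and from 4.89 to 5.95 in sufficient libraries, and Ifnar2 from 6.60 to 6.90 and from 6.59 to 6.81. Ifngr1, a receptor chain for interferon gamma, stood at 10.82, 11.22 and 10.998 in deficient and 10.58, 10.37 and 10.33 in sufficient libraries, without overlap (difference 0.58, adjusted p in limma 0.194), and the kinase gene Tyk2 had a difference of -0.64. Among 8 negative regulators 0 were called (1 higher and 1 lower unadjusted); the phosphatase Ptpn6 had -0.89 and passed once the date mark was a block (adjusted p = 0.0267), and Socs1, an inhibitor of Jak kinases, had 0.73. Of 13 tested genes of nucleic acid sensing and interferon induction, 0 were called, adjusted or unadjusted (median 0.041), with the kinase Ikbke at 0.41, the DNA exonuclease Trex1 at -0.27 and the adaptor gene Tmem173 (Sting) at 0.0062.

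Other interferon-stimulated genes outside the 33 fell on both sides of 0. Of 47 tested, 24 had positive and 23 negative differences, against 60.1% and 39.9% of all genes. Their median was 0.016, against 0.09 over all genes tested. In limma 0 were called without or with the date mark as a block, beside 0.206% and 1.97% of all genes. At an unadjusted limma p under 0.05, 1 was higher (Oas1c) and 3 lower, beside 6.98% and 4.69% of all genes. Those of smallest p were Ifitm1, a membrane protein that limits virus entry, at 5.25, 4.56 and 3.08 in deficient C1, D and dated and 5.97, 6.48 and 6.38 in sufficient A1, B1 and dated (difference -1.98, adjusted p in limma 0.184), and Ly6a, at -0.72. Both groups stood apart without overlap for these genes. Of 18 tested genes that lean towards interferon gamma, 15 had positive differences, against 60.1% of all genes. Their median was 0.16, against 0.09 over all genes tested. Without the block 0 were called in limma, beside 0.206% of all genes. At an unadjusted limma p under 0.05, 4 were higher and 0 lower, beside 6.98% and 4.69% of all genes. In the 4 undated libraries 11 of the 18 were positive with a median of 0.047, against 58.6% and 0.094 over all genes. In the dated pair, 1 library per group, 17 were positive with a median of 0.47, against 57.6% and 0.082. The list as a whole was not tested. Socs1 is in this list too. Once the date mark was a block, 2 of the 18 rose, the interferon-inducible GTPases Iigp1 (0.74, adjusted p = 0.0468) and Irgm1 (0.68, adjusted p = 0.0347), beside 1.12% of all genes.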

How the data were processed

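Per the labels' protocols, Treg cells were sorted into lysis buffer and sequenced as paired reads from Nextera XT libraries; strand is not stated. Per the submitters' processing notes, STAR, RSEM and limma were used with GRCm38 and mm10, without versions. The deposited values are log2(TPM + 1): raised back, each library summed to between 999999 and 1000001 TPM. TPM keeps no counts, so depth is unknown and no counting interval was computed. All 55450 identifiers matched GENCODE mouse release 21, and 0 per-sample columns went unused.

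Genes with a value of at least 1 in at least 3 of 6 libraries (12155) were fitted with limma 3.58.1 in R 4.3.3 (mean-variance trend, no covariate; called at an adjusted p under 0.05). Differences on this scale understate changes of low genes. The fit was tested on simulated data. Python 3.11.15, pandas 2.3.3 and matplotlib 3.10.9 were also used. Members and lists were chosen with earlier results of these data known. Values per library are given for members past the threshold with or without the date block, members without overlap and the 2 most abundant of each role. Of the pathway lists, genes past the threshold in either fit and the 2 of smallest p are named; Ifnar1, Ifnar2, Tmem173 and the paralogs were added after their values were seen. Counts over the receptor and kinase list are not reported here. Alternatives covered the filter, normalization, pseudocount, variance model, date block and libraries left out.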

Additional observations from a re-analysis of the deposited data

How the results depend on the processing

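No paired analysis was possible because the columns carry no replicate numbers. Over all genes 25 were called (16 higher and 9 lower), against 240 with the date mark as a block, 1 with no filter on low values, 47 with at least 1 TPM in all 6 libraries, 38 with quantile normalization (16 higher and 22 lower), 30 with libraries centred on their median (11 higher and 19 lower), 4 without a mean-variance trend, 215 without both dated libraries and, chosen after seeing the data, 0 without deficient C1 and sufficient B1 (748 at an unadjusted limma p under 0.05). Leaving out 1 library gave 0 to 121: 0 without deficient D (944 unadjusted), 0 without sufficient B1 (978 unadjusted), 2 without sufficient A1, 11 without deficient C1, 24 without sufficient dated and 121 without deficient dated; the cause was not tested. Of the interferon-stimulated genes, 1 was called higher with the date block and 0 under each other setting; 1 was called lower with the block, 1 without both dated libraries and 0 to 1 with 1 library left out. Their median of 0.14 stood at 0.030 to 0.20 with 1 library left out and at 0.44 in the dated pair alone. The date block, the filter and the trend cannot move a difference in this balanced design. Of the 32, 4 changed sign with quantile normalization, 5 with centring and 3 to 5 with 1 library left out. Depth is unknown, so low members such as Oas2, Oas3 and Oasl1 carry an unstated counting error.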
